A study of Mus musculus with 12 samples.

Results

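Chemokines and chemokine receptors are described here across small intestinal crypts and colon tumors of mice that lack ieCtnnb1, an intestinal enhancer of the β-catenin gene Ctnnb1. Members were all protein-coding genes of both expression tables with a Ccl, Cxcl, Ccr, Cxcr, Cx3cl1, Cx3cr1, Xcl1 or Xcr1 symbol. This gave 62 of 54532 genes, of which 44 were ligands and 18 were receptors. They carried 56 different names, because Ccl19, Ccl21a, Ccl21b, Ccl21c and Ccl27a each stood for more than 1 gene entry, some of them copies on unplaced scaffolds.

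Bulk RNA-seq was made from 12 libraries in 4 groups of 3. Crypts, released with EDTA and filtered, came from the small intestine of adult Wild type and ieCtnnb1KO mice, and tumors came from the colon of adult APCmin/+ and APCmin/+;ieCtnnb1KO mice, all without treatment and on a C57BL/6 background. Both tumor groups carry the heterozygous Min mutation of Apc, a negative regulator of Wnt signaling. The enhancer deletion is homozygous and in the germline, so immune and stromal cells of the knockout carry it as well as epithelium. Values are FPKM, fragments per kilobase of gene scaled to library size, and libraries held between 14457896 and 16156712 fragments assigned to genes. The 2 tables were scaled apart, so all comparisons stay within a tissue.

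Chemokines are small secreted proteins that bind receptors of the G protein-coupled class on leukocytes and steer them along gradients. In the gut, epithelial Ccl25 and Ccl28 draw lymphocytes with Ccr9 and Ccr10, Cxcl1, Cxcl2, Cxcl3 and Cxcl5 draw neutrophils through Cxcr2, and interferon-induced Cxcl9 and Cxcl10 draw T cells through Cxcr3. Stromal Cxcl12 acts on Cxcr4 of leukocytes and of some tumor cells, while Cx3cl1 and Cxcl16 are made as membrane-bound proteins that also tether cells.

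Ctnnb1 itself was read first, as a check of the labels. In crypts its FPKM was 121, 134 and 123 in wild-type libraries and 102, 104 and 105 in knockout libraries. In tumors it was 299, 363 and 358 in APCmin/+ libraries and 279, 248 and 250 in APCmin/+;ieCtnnb1KO libraries. Every knockout library lay below every control of its tissue, with an exact permutation p of 0.1 in each, the smallest that 3 against 3 libraries allow. The tissues were checked by defining markers. The Paneth cell gene Lyz1 lay between 6169 and 11466 FPKM in crypts, where the colon gene Car1 was at 0.05 FPKM in 1 library and at 0 in the others, while Car1 lay between 46.7 and 201 FPKM in tumors. The separation was not complete, since the colon tumors had Lyz1 between 677 and 1665 FPKM and the Paneth cell gene Defa24 between 225 and 1062 FPKM. In tumors replicate 3 of each genotype came from a female by its Xist level of 114 and 61.4 FPKM, whereas the other tumor libraries and all crypt libraries were below 0.07 FPKM. Within tumors sex was therefore balanced between genotypes.

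Of the 62 members, 22 had a mean of at least 0.5 FPKM in crypts and 38 in tumors and entered the test, 17 of them in both tissues and 19 in neither. Knockout was compared with control by limma on log2(FPKM + 0.5) over all genes above this level, 14176 in crypts and 16743 in tumors. A log2 fold change on this scale is knockout minus control and is drawn towards 0 for genes of low level. No member passed an adjusted p of 0.05 in either tissue, and neither did any other gene, so the share called was 0% in crypts and 0% in tumors. At an unadjusted p under 0.05 the same fit held 829 genes in crypts and 2421 in tumors. The lowest adjusted p of a member was 0.806 in crypts, for Ccl6, and 0.27 in tumors, for Cxcl5. Members are therefore given by their values and by how their libraries are placed.

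**Figure D1:**
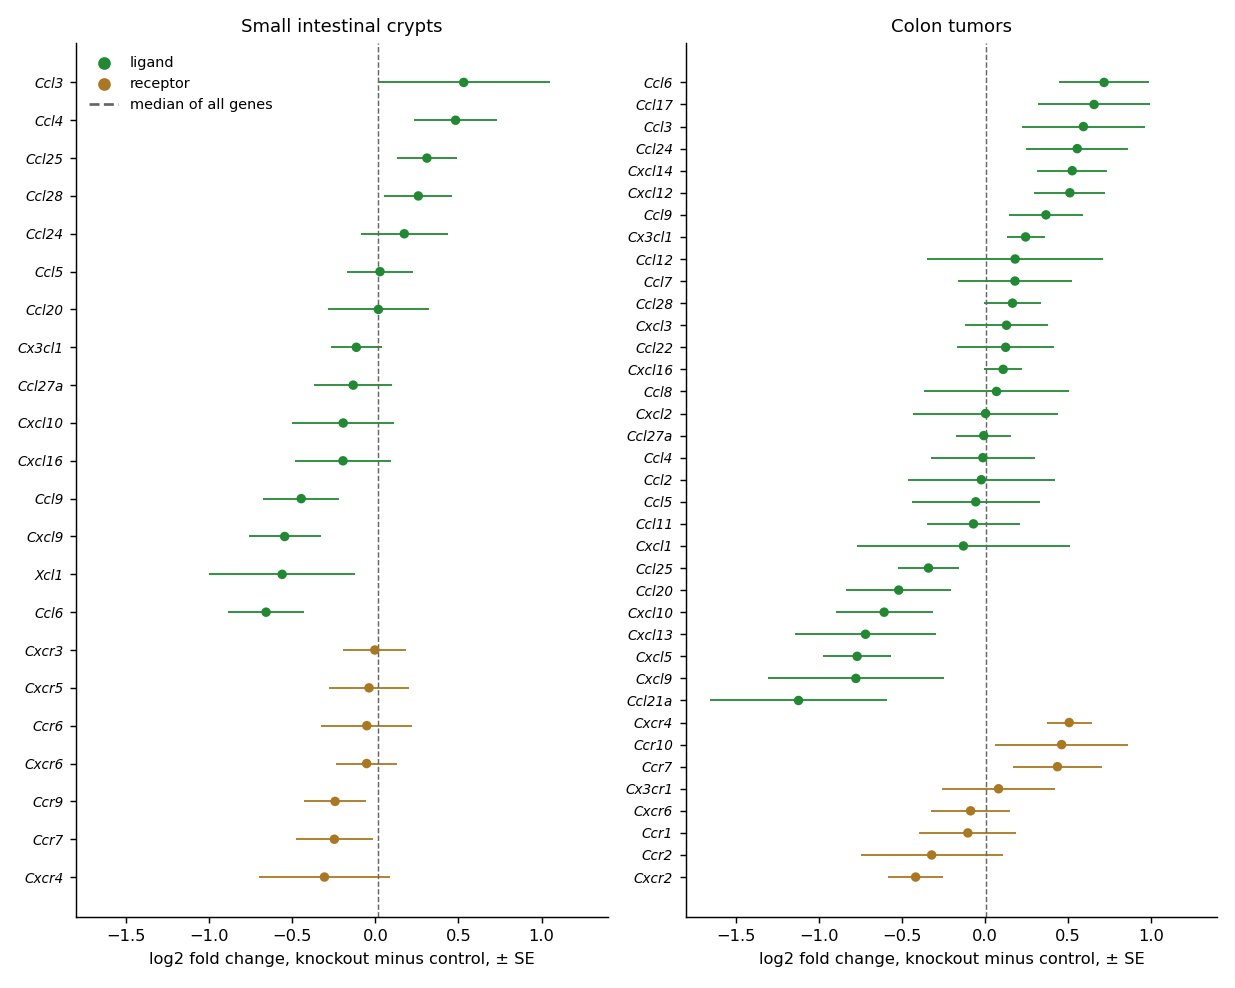
Log2 fold change of tested members (horizontal axis, knockout minus control) with its standard error (bar), for crypts on the left and tumors on the right, ligands in green and receptors in brown, with 3 libraries per group. The dashed line is the median of all genes tested. Of all tested members, 15 of 22 in crypts were below 0 and 20 of 38 in tumors were above 0. Of all genes tested, 52.8% were higher in knockout in crypts and 51.3% in tumors.

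In small intestinal crypts the ligand pool was dominated by Ccl6 and Ccl5, with Ccl25, Ccl9, Cx3cl1 and Ccl28 next, and these 6 were the only ligands with a mean of at least 10 FPKM. The summed FPKM of all ligands was 334, 460 and 501 in wild-type libraries and 369, 337 and 355 in knockout libraries. Ccl6 and Ccl5 together made up between 65.5% and 75.1% of this sum in each library. Receptors were far lower, and their summed FPKM lay between 8.47 and 13.0.

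Ccl6 is a CC chemokine of mouse macrophages and myeloid cells, and in crypts it was the most abundant member. Its FPKM was 139, 229 and 240 in wild-type libraries and 125, 115 and 134 in knockout libraries. All 3 knockout libraries lay below all wild-type libraries, with wild-type replicate 1 only slightly above the highest knockout. The group means were 203 ± 55.5 and 125 ± 9.43 FPKM (SD, n = 3 each). The log2 fold change was −0.66 ± 0.23 (SE), the lowest of any member in crypts, with an exact permutation p of 0.1 and a limma adjusted p of 0.806. The gene (ENSMUSG00000018927) lies on the minus strand of chromosome 11 at 83587882 to 83593087 in mm10 and shares part of its span with E230016K23Rik on the other strand. Whether the authors' counting used strand is not given in the sources used here, so reads of the pair may not be separable.

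Genes of the crypt base are given beside Ccl6. Lyz1 was at 7348, 10821 and 11466 FPKM in wild type and at 7061, 6169 and 6500 FPKM in knockout, with wild-type replicate 1 again the lowest of its group. Of the 5 crypt markers Lgr5, Olfm4, Lyz1, Defa24 and Mptx2, 4 were lower and 1 was higher in knockout, and their summed level was 16461, 22610 and 46176 FPKM in wild-type libraries and 18079, 15250 and 16058 FPKM in knockout libraries, with Defa24 the most abundant. Macrophage and monocyte markers were also lower in knockout for 5 of the 5 that could be tested, of 8 on the list. Their summed level was 15.0, 11.5 and 21.6 FPKM in wild type and 10.5, 15.6 and 4.17 FPKM in knockout, the most abundant was C1qb, none was at 0 in all libraries, and the groups overlapped. The part of either marker list in the Ccl6 values was not tested. In bulk tissue, fewer cells of a type and less RNA per cell cannot be told apart.

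**Figure D2:**
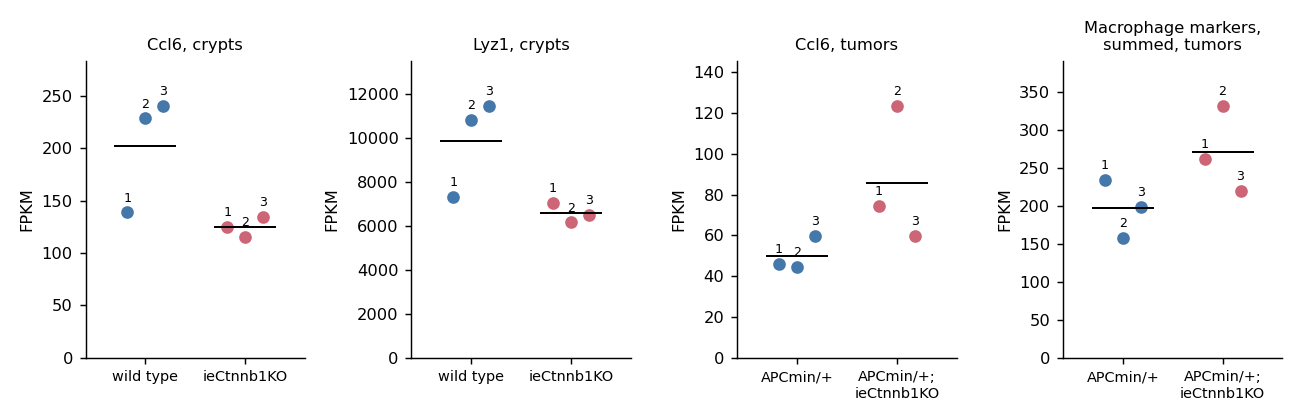
FPKM per library (vertical axes, starting at 0) of Ccl6 and the Paneth cell gene Lyz1 in crypts, and of Ccl6 and the summed macrophage and monocyte markers in tumors. Points are libraries numbered by replicate and black lines are group means. In crypts the 3 ieCtnnb1KO libraries of Ccl6 lie between 115 and 134 and below all wild-type libraries, and in tumors the 3 APCmin/+;ieCtnnb1KO libraries lie between 59.8 and 123 and above all APCmin/+ libraries.

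Ccl9, a myeloid chemokine whose gene lies beside Ccl6 on chromosome 11, had 32.2, 39.3 and 24.0 FPKM in wild-type crypts and 20.5, 19.5 and 29.4 FPKM in knockout crypts. Here the groups overlapped, since knockout replicate 3 lay above wild-type replicate 3. Ccl5, which recruits T cells and is made by intraepithelial lymphocytes, had 82.4, 109 and 136 FPKM in wild type and 119, 106 and 102 FPKM in knockout. The Ccl5 groups had the same mean of 109 FPKM, and its log2 fold change of 0.03 turned to −0.03 after rescaling without the 50 highest genes, to −0.12 after quantile normalization, to −0.16 without wild-type replicate 1 and to −0.04 without knockout replicate 1.

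The gut-homing ligands had higher means in knockout. Ccl25, the ligand of Ccr9 and a product of small intestinal epithelium, had 32.2, 35.6 and 47.1 FPKM in wild type and 53.6, 47.8 and 40.5 FPKM in knockout. Ccl28, a mucosal ligand of Ccr10, had 15.6, 14.7 and 9.09 FPKM in wild type and 15.3, 15.6 and 15.2 FPKM in knockout. For both genes the groups overlapped, and in Ccl28 wild-type replicate 3 alone stood apart. Their log2 fold changes were 0.31 ± 0.18 and 0.26 ± 0.20 (SE), with exact permutation p-values of 0.2 and 0.3. Without wild-type replicate 3 the value of Ccl28 was 0.02. The Ccl25 span includes part of Elavl1 on the other strand. Cx3cl1, the membrane-bound ligand of Cx3cr1, had 19.0, 19.6 and 23.9 FPKM in wild type and 17.7, 17.5 and 22.6 FPKM in knockout. Its groups overlapped, and its log2 fold change of −0.11 became 0.03 when libraries were rescaled to the same total, a scaling that moved the median of all genes to 0.14, so that Cx3cl1 was below that median in both.

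The CXCR3 ligands were scarce in crypts. Cxcl9 (ENSMUSG00000029417), on chromosome 5 at 92321347 to 92328079, had 1.35, 0.976 and 0.783 FPKM in wild type and 0.631, 0.475 and 0.519 FPKM in knockout. Knockout libraries all lay below wild-type libraries, on 222 fragments over the 6 libraries. Its log2 fold change was −0.55 ± 0.22 (SE), with an exact permutation p of 0.1 and a limma adjusted p of 0.844. Cxcl10 had 0.860, 1.16 and 0.453 FPKM in wild type and 1.06, 0.477 and 0.443 FPKM in knockout. The Cxcl10 groups overlapped, and its span shares bases with Art3 on the other strand.

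The neutrophil-drawing CXCR2 ligands were nearly absent from crypts. Cxcl1, Cxcl2, Cxcl3 and Cxcl5 together had 16 fragments over the 6 libraries, too few to compare at this depth. The neutrophil markers matched this scarcity, with none of 6 reaching the level for a test, S100a8 and Ly6g at 0 in all libraries, Csf3r the most abundant, and a summed level between 0.0885 and 0.593 FPKM.

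Receptors in crypts were led by Cxcr4, Cxcr6, Cxcr3 and Cxcr5. Cxcr4 had 2.82, 4.2 and 2.58 FPKM in wild type and 1.09, 4.13 and 2.95 FPKM in knockout. Knockout replicate 1 alone was low, and without it the log2 fold change of −0.31 became 0.14. Cxcr6, the receptor of Cxcl16 on resident T cells, had 1.87, 1.90 and 1.45 FPKM in wild type and 2.10, 1.51 and 1.4 FPKM in knockout. Cxcr3 of effector T cells had 1.49, 1.1 and 1.81 FPKM in wild type and 1.35, 1.62 and 1.36 FPKM in knockout. Cxcr5, a chemokine receptor found on B cells, had 1.34, 1.1 and 0.996 FPKM in wild type and 0.719, 1.59 and 1.09 FPKM in knockout. In all 3 the groups overlapped, and their log2 fold changes of −0.05, −0.00 and −0.04 turned positive after rescaling to the same total and after quantile normalization. Rescaling to the same total moved the median of all genes to 0.14, and all 3 stayed below that median. After quantile normalization the median of all genes was 0.006, and all 3 lay above it. The spans of Cxcr5 and Cxcr6 share bases with Bcl9l and Fyco1 on the other strand. Without knockout replicate 3 the log2 fold change of Cxcr6 was 0.04, without knockout replicate 1 that of Cxcr5 was 0.16, and that of Cxcr3 was 0.12 without wild-type replicate 3. Of the 6 fits with 1 library left out, Cxcr3 kept its sign in only 2 and Cxcr5 in 4. Ccr9, the receptor of Ccl25, had 0.806, 0.886 and 1.08 FPKM in wild type and 0.605, 0.727 and 0.770 FPKM in knockout, so that the groups did not overlap. Its log2 fold change was −0.24 ± 0.19 (SE) with an exact permutation p of 0.1, and the long span of Ccr9 covers other genes on both strands, among them Lztfl1 and Slc6a20a.

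**Figure D3:**
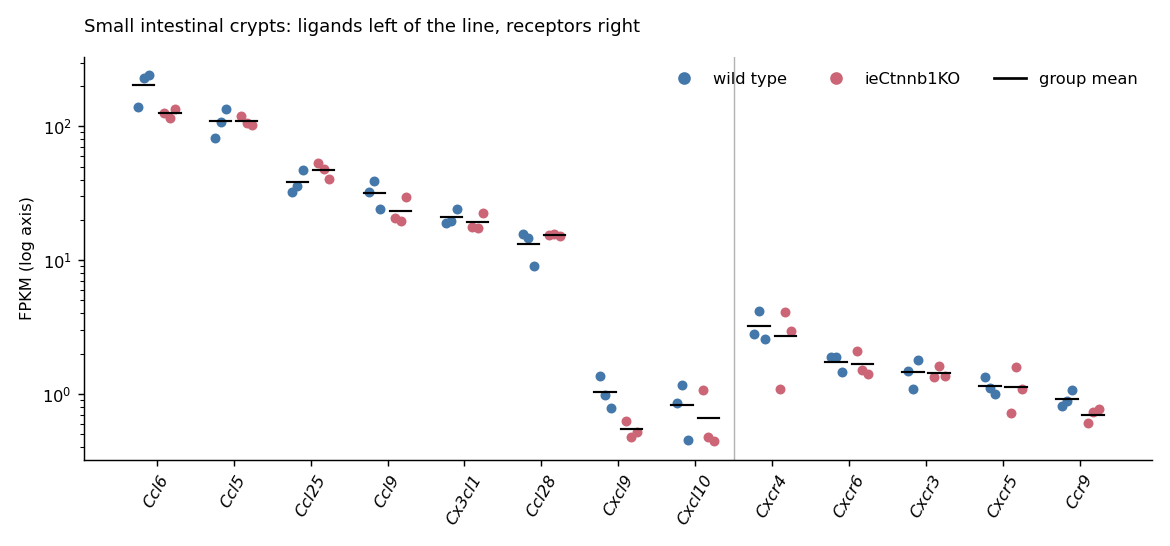
FPKM (log axis) of the crypt members described library by library, ligands to the left of the grey line and receptors to the right. Each point is 1 library, blue for wild type and red for ieCtnnb1KO, and black bars are means of 3. Ccl6, Cxcl9 and Ccr9 are the members whose red points all lie below the blue points.

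The other 9 tested crypt members had log2 fold changes between −0.56 and 0.53. Ccl4, a T cell and macrophage chemokine, had means of 2.67 ± 0.196 and 4.12 ± 1.67 FPKM, and Ccl3 had 1.2 ± 0.979 and 1.59 ± 0.232 FPKM in wild type and knockout (SD, n = 3). Xcl1, which attracts Xcr1-bearing dendritic cells, had 2.46 ± 1.68 and 1.42 ± 0.744 FPKM, and Cxcl16 had 3.27 ± 1.14 and 2.80 ± 0.914 FPKM. In each of these 4 the difference of the means was smaller than the larger SD. Ccl24, Ccl20, Ccl27a, Ccr6 and Ccr7 had means between 0.455 and 1.25 FPKM, with overlapping groups. Ccr7 passed the level only through the wild-type group, whose mean was 0.644 FPKM against 0.455 FPKM in knockout. The T cell markers, beside which these lymphocyte chemokines stand, were lower for 4 and higher for 3 of 7 genes in knockout. Their summed level was 45.9, 56.0 and 53.8 FPKM in wild type and 56.2, 56.0 and 48.7 FPKM in knockout, with Cd8a the most abundant and none at 0. At an unadjusted p under 0.05 by limma, 1 was higher, Cd3d, and 0 were lower, against 3.48% and 2.36% of all genes. Cd3d had 3.45, 4.54 and 5.34 FPKM in wild type and 6.40, 6.51 and 5.45 FPKM in knockout, without overlap.

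Of the 40 crypt members below the level, 29 were ligands and 11 were receptors. Of the 40, 24 had fewer than 3 fragments in every library, among them 14 at 0 throughout. The highest of the 40 was Ccr1, at a mean of 0.345 FPKM.

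Taken by role, 7 of the 15 ligands tested in crypts were higher and 8 lower in knockout, and 0 of the 7 receptors were higher and 7 lower. The receptors include Ccr7, which the wild-type group alone brought over the level, and without it 0 of 6 were higher and 6 lower, with a median of −0.05. This tally was not stable. After rescaling to the same total, after quantile normalization or without knockout replicate 1, 4 of the 7 receptors were higher. The median log2 fold change was −0.11 for ligands and −0.05 for receptors, against 0.01 for all genes tested. Both medians turned positive, to 0.03 and 0.05, when libraries were rescaled to the same total, a change that moved the median of all genes to 0.14, so that both lists stayed 0.11 and 0.10 below the median of all genes. Quantile normalization turned the receptor median to 0.02, which is 0.016 above the median of all genes. Without wild-type replicate 3 or knockout replicate 3 the ligand median was 0.04 or 0.06, which is 0.041 or 0.050 above that of all genes. Without knockout replicate 1 the receptor median was 0.01, against 0.02 for all genes. Beside the receptors, general leukocyte markers were lower for 4 of 4 in knockout crypts, with a median of −0.22 and a summed level of 43.1, 50.4 and 45.4 FPKM in wild type and 36.9, 46.0 and 38.1 FPKM in knockout. B and plasma cell markers were lower for 5 and higher for 1 of 6, with a median of −0.23 and a summed level of 41.6, 42.4 and 38.7 FPKM in wild type and 31.7, 42.4 and 31.3 FPKM in knockout. The most abundant were Coro1a and Jchain, and none was at 0. The part of leukocyte content in the receptor values was not tested.

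Groups did not overlap for 3 of the tested crypt members, all lower in knockout, against 5.15% of all genes, and for 0 members higher in knockout, against 6.79% of all genes. At an unadjusted p under 0.05, 2 members were lower, Ccl6 and Cxcl9, against 2.36% of all genes, and 0 were higher, against 3.48%. Without wild-type replicate 2, knockout replicate 1 or knockout replicate 2 there were 0 members at this level, and without wild-type replicate 1 there was 1, Ccl6. Without wild-type replicate 3 the members were Ccl25, Ccl9 and Cxcl9, and without knockout replicate 3 they were Ccl4, Ccl6 and Ccl9, so that neither Ccl6 nor Cxcl9 was there in every fit.

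In colon tumors more members were expressed, and the leading ligands were Cxcl14, Ccl6 and Cxcl5. Summed ligand FPKM was 287, 246 and 354 in APCmin/+ libraries and 319, 385 and 307 in APCmin/+;ieCtnnb1KO libraries. Receptors summed to between 25.8 and 43.5 FPKM, with Cxcr4 the most abundant. Cxcl5 and its receptor Cxcr2, Cxcl12 and its receptor Cxcr4, Ccl6 and Cxcl14 had the lowest p-values and are described first, although none of them passed an adjusted p.

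Cxcl5, an epithelial chemokine that draws neutrophils through Cxcr2, had 43.4, 59.1 and 67.1 FPKM in APCmin/+ tumors and 32.9, 26.4 and 39.4 FPKM in APCmin/+;ieCtnnb1KO tumors. All knockout libraries lay below all controls. Means were 56.5 ± 12.1 and 32.9 ± 6.52 FPKM (SD, n = 3 each), and the log2 fold change was −0.77 ± 0.20 (SE), with an exact permutation p of 0.1 and a limma adjusted p of 0.27. The gene (ENSMUSG00000029371) lies on chromosome 5 at 90759360 to 90761624. Its receptor gene Cxcr2 (ENSMUSG00000026180), on chromosome 1 at 74153989 to 74161246, had 3.71, 4.2 and 4.08 FPKM in APCmin/+ tumors and 3.45, 3.09 and 2.19 FPKM in knockout tumors. Again no knockout library reached the lowest control. The log2 fold change of Cxcr2 was −0.42 ± 0.17 (SE), with an exact permutation p of 0.1 and a limma adjusted p of 0.337, and without knockout replicate 3 it was −0.25. The signs of both genes were kept under every alternative tried.

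The remaining CXCR2 ligands did not share this order. Cxcl1 had 7.08, 7.01 and 26.1 FPKM in APCmin/+ tumors and 10.5, 4.79 and 19.4 FPKM in knockout tumors. Cxcl2 had 9.56, 8.94 and 26.2 FPKM in APCmin/+ tumors and 12.5, 9.77 and 18.7 FPKM in knockout tumors. In both genes replicate 3 of each genotype, the library from a female, was the highest of its group, and the groups overlapped. Cxcl3 had 2.30, 2.23 and 3.36 FPKM in APCmin/+ tumors and 3.70, 1.91 and 3.34 FPKM in knockout tumors, also with overlap. The log2 fold changes were −0.13 ± 0.64 for Cxcl1, 0.00 ± 0.43 for Cxcl2 and 0.13 ± 0.25 for Cxcl3 (SE). In tumors of male mice alone Cxcl1 stood at 0.02, without APCmin/+ replicate 3 at 0.48 and without knockout replicate 2 at 0.37. Cxcl2 turned negative after either rescaling of totals, to −0.10, where the median of all genes moved to −0.09. It kept its sign in only 3 of the 6 fits with 1 library left out, and was lowest, at −0.26, without APCmin/+ replicate 2. Cxcl3 stood at −0.02 without knockout replicate 1.

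Because Cxcl1 and Cxcl2 were high in the same libraries, the promoters of these neighbouring genes are shown, read from RefSeq on GRCm38.p6 as 250 bases before to 50 bases after the start. Capitals mark matches to a κB-like pattern, which is GGG, then any 2 bases, then TTTCC, searched on both strands. It was found in 1.63% of all 32851 promoter windows and in 6 of the 48 member windows. Of the 41 member names with a window, 6 had it, namely Cxcl1, Cxcl2, Cxcl3, Ccl9, Ccl20 and Ccr3. No window of Cxcl5 was used here. The TCF/LEF-like letters CTTTGAT, also searched on both strands, were found for 2 of the 41 names, Cxcl12 and Xcr1. They were in 2 of the 48 member windows and in 3.73% of all windows. Both patterns were chosen after the values were seen, and nothing is read from either share. A match is a match of letters, and no binding was measured here. The windows are chr5:90890995-90891294, chr5:90903649-90903948 and chr5:90785851-90786150, all on the plus strand.
Cxcl1: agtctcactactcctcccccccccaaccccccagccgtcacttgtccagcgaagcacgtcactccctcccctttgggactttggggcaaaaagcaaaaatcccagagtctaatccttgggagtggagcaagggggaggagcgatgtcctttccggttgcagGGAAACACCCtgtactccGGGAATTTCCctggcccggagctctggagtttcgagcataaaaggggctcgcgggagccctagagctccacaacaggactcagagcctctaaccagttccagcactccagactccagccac
Cxcl2: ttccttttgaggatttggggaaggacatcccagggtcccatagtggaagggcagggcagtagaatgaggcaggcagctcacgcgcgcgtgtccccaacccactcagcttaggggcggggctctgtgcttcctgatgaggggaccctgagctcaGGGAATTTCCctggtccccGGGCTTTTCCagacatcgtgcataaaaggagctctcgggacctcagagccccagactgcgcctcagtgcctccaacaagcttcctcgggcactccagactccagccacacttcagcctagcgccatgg
Cxcl3: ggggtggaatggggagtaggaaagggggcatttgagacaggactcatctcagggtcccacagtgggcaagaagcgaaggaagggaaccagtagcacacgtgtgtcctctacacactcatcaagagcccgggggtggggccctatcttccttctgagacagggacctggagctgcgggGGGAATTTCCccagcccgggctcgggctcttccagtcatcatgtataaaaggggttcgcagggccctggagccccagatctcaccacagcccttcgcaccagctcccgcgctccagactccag
The letters GGGAATTTCC stand 71 bases before the start in Cxcl1, 97 in Cxcl2 and 73 in Cxcl3, and Cxcl1 and Cxcl2 each hold another match beside it.

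Neutrophil markers in tumors stood beside the Cxcl5 and Cxcr2 values. Of 6 genes, 5 were lower and 1 was higher in knockout, and the summed level was 234, 526 and 364 FPKM in APCmin/+ libraries and 253, 135 and 261 FPKM in knockout libraries, with S100a9 the most abundant and none at 0. S100a9 had 112, 260 and 180 FPKM in APCmin/+ tumors and 110, 51.8 and 111 FPKM in knockout tumors. S100a8 had 66.8, 153 and 98.2 FPKM against 64.7, 31.2 and 63.2 FPKM. In both, APCmin/+ replicate 1 lay just above the knockout libraries. Ly6g was the exception, at 27.3, 29.7 and 28.6 FPKM in APCmin/+ tumors and 46.1, 36.5 and 63.4 FPKM in knockout tumors. The part of neutrophil content in the Cxcr2 values was not tested.

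Cxcr4, the receptor of Cxcl12, was the receptor of highest level in tumors. It had 8.40, 6.50 and 8.40 FPKM in APCmin/+ tumors and 10.1, 12.6 and 10.9 FPKM in knockout tumors, so that every knockout library lay above every control. Means were 7.77 ± 1.1 and 11.2 ± 1.27 FPKM (SD, n = 3 each), and the log2 fold change was 0.51 ± 0.14 (SE), with an exact permutation p of 0.1 and a limma adjusted p of 0.272. Cxcr4 (ENSMUSG00000045382) lies on chromosome 1 at 128588199 to 128592293. Cxcl12, a stromal chemokine on chromosome 6 at 117168535 to 117181367 (ENSMUSG00000061353), had 3.57, 2.74 and 2.58 FPKM in APCmin/+ tumors and 4.2, 5.95 and 3.39 FPKM in knockout tumors. Here APCmin/+ replicate 1 lay above knockout replicate 3. The log2 fold change of Cxcl12 was 0.51 ± 0.21 (SE), with an exact permutation p of 0.2 and a limma adjusted p of 0.345, and without knockout replicate 2 it was 0.31. Both genes stayed higher under each rescaling tried.

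Fibroblast markers stood beside Cxcl12. All 5 tested of 5 were higher in knockout tumors, 3 of them with groups that did not overlap, as for 11.4% of all genes, and the summed level was 238, 152 and 141 FPKM in APCmin/+ libraries and 245, 289 and 244 FPKM in knockout libraries. The most abundant, Col1a1, had 137, 81.6 and 68.5 FPKM in APCmin/+ tumors and 144, 151 and 143 FPKM in knockout tumors. APCmin/+ replicate 1 was the highest control for Cxcl12, for Col1a1 and for the summed level. The part of stromal content in the Cxcl12 values was not tested.

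**Figure D4:**
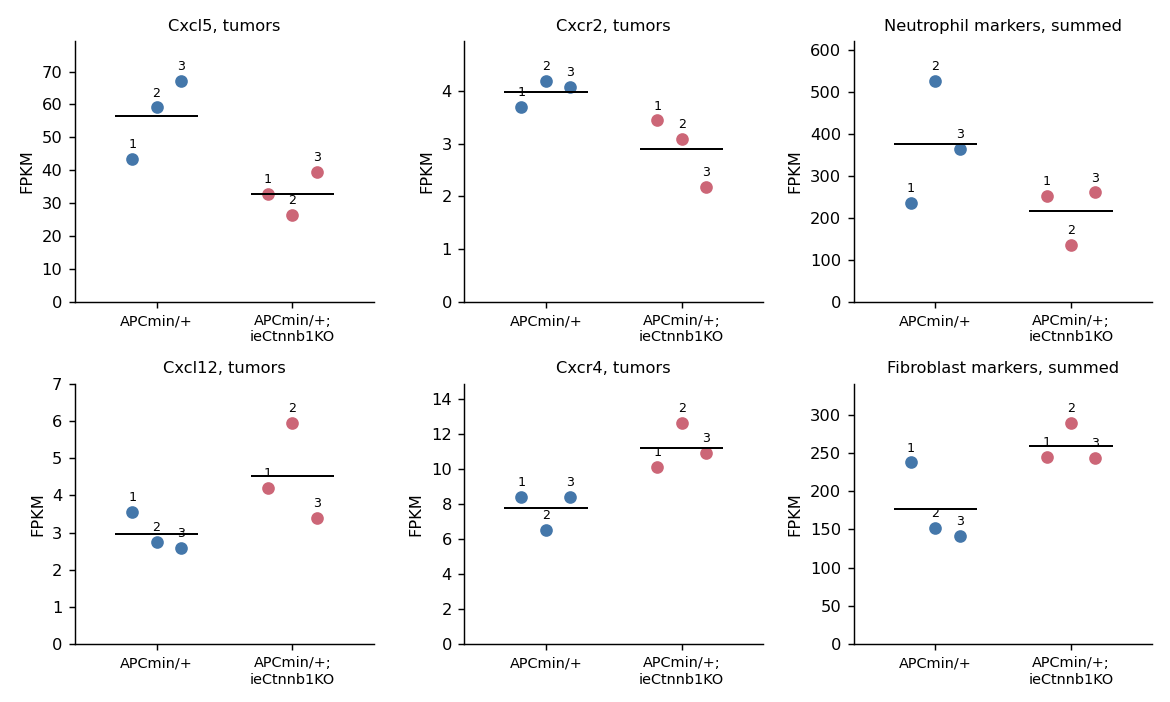
FPKM per tumor library (vertical axes, starting at 0) of Cxcl5, Cxcr2 and the 6 summed neutrophil markers above, and of Cxcl12, Cxcr4 and the 5 summed fibroblast markers below. Points are libraries numbered by replicate and black lines are group means. Cxcl5 lies between 26.4 and 39.4 in the 3 knockout libraries, below all controls, and Cxcr4 lies between 10.1 and 12.6, above all controls.

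Ccl6 had 46.0, 44.4 and 59.6 FPKM in APCmin/+ tumors and 74.3, 123 and 59.8 FPKM in knockout tumors. The knockout libraries lay above all controls, although knockout replicate 3 exceeded the highest control by little. Means were 50 ± 8.31 and 85.8 ± 33.3 FPKM (SD, n = 3 each), and the log2 fold change was 0.72 ± 0.27 (SE), with an exact permutation p of 0.1 and a limma adjusted p of 0.324. Without knockout replicate 2 it was 0.42. Macrophage and monocyte markers were higher in knockout tumors for 8 of 8 genes. Their summed level was 234, 158 and 198 FPKM in APCmin/+ libraries and 262, 331 and 220 FPKM in knockout libraries, and knockout replicate 2 was highest for the markers and for Ccl6. The most abundant marker, C1qa, had 74.3, 45.1 and 53.3 FPKM against 86.8, 112 and 82.9 FPKM. Small intestinal crypt markers, set beside Ccl6 in crypts, had a summed level of 1091, 1269 and 1362 FPKM in APCmin/+ libraries and 1841, 2743 and 938 FPKM in knockout libraries, with 2 higher and 2 lower of the 4 tested of 5, Lyz1 the most abundant and none at 0. Among the knockout libraries this sum had the same order as Ccl6, with replicate 2 highest and replicate 3 lowest, while among the controls replicates 1 and 2 were in the other order. The part of either marker list in the tumor Ccl6 values was not tested.

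Cxcl14, an epithelial and stromal chemokine and the most abundant ligand of tumors, had 76.4, 46.1 and 68.2 FPKM in APCmin/+ tumors and 92.4, 103 and 75.6 FPKM in knockout tumors. Knockout replicate 3 fell between the controls, so the groups overlapped. Its log2 fold change was 0.53 ± 0.21 (SE), with an exact permutation p of 0.2 and a limma adjusted p of 0.337. Without APCmin/+ replicate 2 it was 0.31. The gene (ENSMUSG00000021508) lies on chromosome 13 at 56288643 to 56296551. Beside Cxcl14, the fibroblast markers given above were higher for 5 of 5, and the epithelial markers were higher for 5 of 5, with a summed level of 3151, 3090 and 2802 FPKM in APCmin/+ libraries and 3610, 3558 and 3678 FPKM in knockout libraries, Krt8 the most abundant and none at 0. The part of either list in the Cxcl14 values was not tested. Cx3cl1 and Cxcl16 are the membrane-bound ligands. Cx3cl1 had 13.9, 12.3 and 12.2 FPKM in APCmin/+ tumors and 15.0, 17.4 and 13.6 FPKM in knockout tumors. Cxcl16 had 14.5, 11.7 and 13.7 FPKM in APCmin/+ tumors and 14.3, 15.8 and 13.1 FPKM in knockout tumors. Both sets of groups overlapped. The log2 fold changes were 0.25 ± 0.11 for Cx3cl1 and 0.11 ± 0.11 for Cxcl16 (SE), with exact permutation p-values of 0.2 and 0.5. Cx3cl1 had the lowest unadjusted p after the 6 members above, with a limma adjusted p of 0.38. The span of Cxcl16 shares bases with Zmynd15 on the other strand.

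The CXCR3 ligands varied widely among control tumors. Cxcl9 had 3.09, 0.965 and 5.81 FPKM in APCmin/+ tumors and 2.12, 1.28 and 0.914 FPKM in knockout tumors. Cxcl10 had 2.19, 0.942 and 2.52 FPKM in APCmin/+ tumors and 1.02, 1.05 and 0.911 FPKM in knockout tumors. In both genes APCmin/+ replicate 2 was as low as the knockout libraries while the other controls were higher. Log2 fold changes were −0.78 ± 0.53 and −0.61 ± 0.29 (SE), with an exact permutation p of 0.3 for each. Without APCmin/+ replicate 2 they were −1.34 and −0.93, and without APCmin/+ replicate 3 they were −0.29 and −0.40. Their inducer Ifng was at 0 in all tumor libraries.

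Of the gut-homing genes, 3 could be tested in tumors. Ccl25 had 2.18, 2.39 and 2.03 FPKM in APCmin/+ tumors and 1.28, 2.16 and 1.55 FPKM in knockout tumors. Ccl28 had 4.2, 4.57 and 4.80 FPKM in APCmin/+ tumors and 4, 6.40 and 5.24 FPKM in knockout tumors. Ccr10, found on plasma cells that home to mucosa and overlapped by Cntnap1 on the other strand, had 3.04, 1.09 and 0.736 FPKM in APCmin/+ tumors and 2.66, 2.24 and 1.6 FPKM in knockout tumors. Groups overlapped for all 3. Beside Ccr10, the B and plasma cell markers had a summed level of 272, 76.8 and 122 FPKM in APCmin/+ libraries and 239, 183 and 133 FPKM in knockout libraries, with Jchain the most abundant, none at 0, and 4 of the 4 tested genes of 6 higher in knockout. Their part in the Ccr10 values was not tested. Ccr9 was below the level for a test in tumors.

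The other leading receptors showed overlap. Ccr1, an inflammatory receptor of myeloid cells, had 6.43, 5.33 and 6.85 FPKM in APCmin/+ tumors and 6.32, 8.43 and 3.44 FPKM in knockout tumors. Cx3cr1, a receptor of resident macrophages, had 5.66, 4.25 and 3.28 FPKM in APCmin/+ tumors and 4.77, 7.28 and 2.70 FPKM in knockout tumors. The long span of Cx3cr1 covers other genes on both strands, among them Csrnp1, Gorasp1 and Xirp1 on its own strand. In both receptors knockout replicate 2 was the highest and knockout replicate 3 the lowest of the 6 libraries. The log2 fold change of Ccr1 was −0.10 and became 0.23 without knockout replicate 3 and 0.30 in male mice alone. That of Cx3cr1 was 0.08 and turned to −0.01 after either rescaling of totals. Both rescalings moved the median of all genes to −0.09, so that Cx3cr1 was above that median before and after. The log2 fold change of Cx3cr1 was −0.22 without knockout replicate 2 and −0.09 without APCmin/+ replicate 3.

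**Figure D5:**
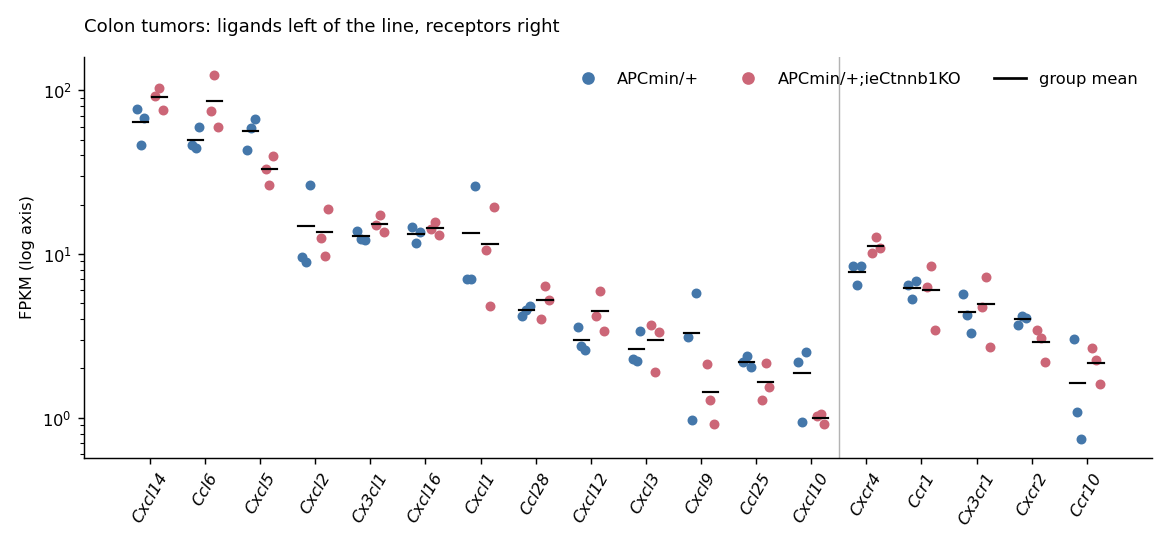
FPKM (log axis) of the tumor members described library by library, ligands to the left of the grey line and receptors to the right. Each point is 1 library, blue for APCmin/+ and red for APCmin/+;ieCtnnb1KO, and black bars are means of 3. Red points lie below all blue points for Cxcl5 and Cxcr2, and above them for Ccl6 and Cxcr4.

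The other 20 tested tumor members had log2 fold changes between −1.12 and 0.66, with overlapping groups in each. Of the 4 tested T helper 2 and eosinophil ligands, 3 were higher and 1 lower. Among them, Ccl17 had means of 2.69 ± 1.37 and 4.35 ± 1.17 FPKM in control and knockout (SD, n = 3), and Ccl24 had 1.64 ± 0.369 and 2.80 ± 1.44 FPKM. The log2 fold changes of Ccl11 and Ccl22 were −0.07 and 0.13. Cxcl13, the B cell follicle chemokine, had 6.27 ± 2.99 and 3.45 ± 1.51 FPKM. The lowest value, −1.12, was that of Ccl21a, whose scaffold copy rested on 55 fragments, with 4.82 FPKM in APCmin/+ replicate 3 and at most 1.23 FPKM elsewhere, and whose near-identical copies may share reads. Of the monocyte and macrophage ligands, 6 of 9 were higher and 3 of 9 lower, with log2 fold changes of −0.02 for Ccl2, −0.01 for Ccl4 and −0.05 for Ccl5. The 24 members below the level were 15 ligands and 9 receptors, and 11 of the ligands had fewer than 3 fragments in every library.

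By role, 16 of 29 tested ligands in tumors were higher and 13 lower in knockout, and 4 of 9 receptors were higher and 5 lower. The median log2 fold change was 0.07 for ligands and −0.09 for receptors, against 0.01 for all genes tested. The ligand median turned to −0.03 under either rescaling of totals, which moved the median of all genes to −0.09. The receptor median turned positive without APCmin/+ replicate 1, knockout replicate 1 or knockout replicate 3, to 0.03, 0.01 and 0.23, in tumors of male mice alone, to 0.24, and with no filter on low values, to 0.07, and the ligand median was −0.08 without APCmin/+ replicate 2.

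Groups did not overlap for 2 of the tested tumor members higher in knockout, Ccl6 and Cxcr4, against 11.4% of all genes, and for 2 lower, Cxcl5 and Cxcr2, against 10.6%. At an unadjusted p under 0.05, 4 members were higher, against 8.46% of all genes, and 2 were lower, against 6%. Below the level for a test, groups also did not overlap for Ccr6, at 0.293, 0.131 and 0.259 FPKM in APCmin/+ tumors and 0.670, 0.833 and 0.332 FPKM in knockout tumors, for Cxcl15, lower in knockout on 46 fragments, and for a scaffold copy of Ccl21c, higher on 3 fragments. With no filter these 3 had an unadjusted p under 0.05 by limma. Among 38 members tested, counts this small are not a result about the members. Either rescaling of totals kept 3 of the 6 at this level, Cxcl5, Cxcr2 and Cxcr4, and lost Ccl6, Cxcl12 and Cxcl14. Without APCmin/+ replicate 3 the members were Ccl6, Cxcl5 and Cxcr4, and without knockout replicate 1 they were Cxcl5, Cxcr2 and Cxcr4. Without APCmin/+ replicate 1 there were 9, Cxcl5, Cxcl12, Cxcl13, Cxcl14, Cxcr4, Ccl3, Ccl17, Ccr7 and Ccr10, and without APCmin/+ replicate 2 there were 5, Cxcl5, Cxcl9, Cxcl10, Cxcr4 and Ccl21a. Without knockout replicate 2 the members were Ccl6, Ccl25, Cxcl5 and Cxcr4, and without knockout replicate 3 they were Ccl6, Ccl20, Cx3cl1, Cxcl5, Cxcl12, Cxcl14 and Cxcr4. Cxcl5 and Cxcr4 were thus in all 6 of these fits, and Cxcr2 was in 1.

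Genes around the chemokine system were taken from a list of 41. In crypts 28 could be tested, 9 higher and 19 lower in knockout, where Csf2, among the higher, reached the level only through the knockout group, at means of 0.376 and 0.633 FPKM, and 1 lower gene, Nfkb2, had an unadjusted p under 0.05, against 2.36% of all genes. In tumors 38 could be tested, 23 higher and 15 lower, and 3 higher genes, Nfkb2, Plcb3 and Pf4, had such a p, against 8.46% of all genes, which is near the share of the list. Nfkb2, a subunit of NF-κB that is also its target, had 14.1, 15.6 and 14.5 FPKM in wild-type crypts and 10.6, 11 and 12.5 FPKM in knockout crypts. In tumors it had 25.7, 25.2 and 24.6 FPKM in APCmin/+ libraries and 32.5, 29.4 and 32.4 FPKM in knockout libraries. Thus its knockout libraries lay below the controls in crypts and above them in tumors, with limma adjusted p-values of 0.797 and 0.269. Plcb3, a phospholipase behind Gi-coupled receptors, had 58.0, 58.6 and 51.0 FPKM in APCmin/+ tumors and 69.9, 80.1 and 63.7 FPKM in knockout tumors, without overlap. The platelet chemokine Pf4 had 19.4, 12.4 and 19.0 FPKM in APCmin/+ tumors and 19.0, 29.8 and 28.5 FPKM in knockout tumors, with overlap.

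The most abundant of these genes are given by their group means. In crypts Plcb3 had means of 162 and 163 FPKM, the G protein subunit Gnb1 had 109 and 129 FPKM, and the protease Dpp4, which trims chemokines, had 91.1 and 87.4 FPKM in wild type and knockout. In tumors the syndecan Sdc1 had 163 and 181 FPKM, Gnai2 had 110 and 118 FPKM, and Gnb1 had 105 and 110 FPKM in control and knockout. Of the inducers of chemokines 5 of 8 could be tested in tumors, and 4 of these, Il1b, Tnf, Il1a and Csf2, were lower in knockout, although Csf2 reached the level for a test only through the APCmin/+ group, at means of 0.532 and 0.4996 FPKM. Il1b was highest in APCmin/+ replicate 3, with 44.7 FPKM, the library that was also highest for Cxcl1 and Cxcl2. Of the atypical receptors, which take up chemokines without Gi signaling, 1 of 5 was tested in crypts and 5 of 5 in tumors, where 3 were higher and 2 lower.

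The remaining marker lists were read in the same way. General leukocyte markers were higher for 2 and lower for 2 in knockout tumors. Of the B and plasma cell markers in crypts, Jchain had 10.4, 14.4 and 11.4 FPKM in wild type and 8.10, 9.01 and 8.71 FPKM in knockout. T cell markers in tumors were higher for 2 and lower for 1 of the 3 that could be tested, with a summed level between 9.78 and 12.3 FPKM. Dendritic cell markers had 1 testable gene of 5 in each tissue, Itgax, lower in crypts and higher in tumors. Fibroblast and endothelial markers had 1 testable gene each in crypts, both lower in knockout, and endothelial markers in tumors were higher for 3 and lower for 1 of 4. Epithelial markers were higher for 2 and lower for 3 of 5 in crypts, and higher for 5 of 5 in tumors without overlap, as for 11.4% of all genes, where Krt8 had means of 1401 and 1776 FPKM and Epcam 771 and 856 FPKM. The colon list was higher for 2 and lower for 1 of 3 in crypts and higher for 5 of 5 in tumors. Its most abundant gene in tumors was Muc2, at means of 129 and 324 FPKM. Muc2 is a goblet cell mucin and had between 242 and 414 FPKM in small intestinal crypts, so it does not mark colon alone.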

How the data were processed

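Bulk RNA-seq was measured in 6 crypt and 6 tumor libraries, 3 per genotype. The authors deposited FPKM per gene in 1 table per tissue, and each table was normalized separately, so no test crosses them. The submitters' processing notes name cutadapt, HISAT2, Cufflinks 2.2.1, DESeq2 and mm10. The study's methods name featureCounts for reads per gene, which the notes do not. How FPKM was computed and whether strand was used is not given in the sources used here. FPKM times gene length gave whole multiples of 1 step per library (within 0.1, 100% of values), and these steps gave the fragments per library, between 14457896 and 16156712. The step did not follow these fragments alone. In wild-type crypts replicate 1 had 14457896 fragments and a step of 64.6, and replicate 2 had 16042558 fragments and a step of 65.4. The scaling factor of each library is therefore not known, and small list medians may depend on it. A floor of 3 fragments is 0.179 to 0.214 FPKM for a gene of 1 kb, which reflects counting error only.

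Genes with a mean of at least 0.5 FPKM over the 6 libraries of a tissue were compared with limma 3.58.1 in R 4.3.3 (lmFit, eBayes with trend) on log2(FPKM + 0.5), with Benjamini-Hochberg adjustment over all genes tested and a threshold of 0.05. Single members were also compared by exact permutation over libraries. P-values measure the spread between mice. Members were given library by library if they were among the 6 ligands or 4 receptors of highest mean, had an unadjusted p under 0.05, or were tested CXCR2 ligands, CXCR3 ligands or gut-homing genes. Of other lists, values were given for at most 6 genes, the 3 of highest mean of all pathway genes and those with an unadjusted p under 0.05, and for marker genes that stand beside a member. Members and lists were chosen with earlier results of these data known, and the promoter patterns were chosen after the values were seen.

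Alternatives were other pseudocounts (0.1 and 1) and filters (none and 1 FPKM), protein-coding genes only, 3 other scalings, eBayes without trend, limma voom on the recovered fragments, a replicate block and each library left out in turn. Sex as a covariate and male mice only were added after seeing the data. The scripts were tested on simulated data. The values of 1 receptor are not reported here, in text or figures, although it is in the counts, sums and medians. Tables were read with Python 3.11.15, numpy 2.4.6 and pandas 2.3.3, and figures were drawn with matplotlib 3.10.9. Promoter windows came from RefSeq on GRCm38.p6.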

Additional observations from a re-analysis of the deposited data

Results flagged for a closer look

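Ccl6 was picked out because its libraries were placed in opposite order in the 2 tissues. Its log2 fold change was −0.66 in crypts, where every knockout library lay below every control, and 0.72 in tumors, where every knockout library lay above every control. In tumors the value was 0.42 without knockout replicate 2. Opposite signs in the 2 tissues were common, in 10 of the 17 members tested in both. The difference between the tissues was not tested, since the tables were normalized separately. Groups of 3 were not tested for outliers.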

How the results depend on the processing

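Of 31 member results given library by library, 20 kept their sign under every alternative and 11 turned under at least 1, and none passed an adjusted p. Cx3cl1 in crypts turned only under rescaling to the same total, which moved the median of all genes to 0.14. The cause was not tested in any case.

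In crypts, rescaling to the same total turned the ligand median to 0.030, the receptor median to 0.045, Cx3cl1 to 0.030, Cxcr6 to 0.059, Cxcr3 to 0.11 and Cxcr5 to 0.058. Quantile normalization turned the receptor median to 0.022, Ccl5 to −0.12, Cxcr6 to 0.022, Cxcr3 to 0.065 and Cxcr5 to 0.039. Rescaling without the 50 highest genes turned Ccl5 to −0.034, and Cxcr3 was 0.000383 with a pseudocount of 0.1 and 0.0035 with voom. Members with an unadjusted p under 0.05 were 1, Ccl6, with a filter of 1 FPKM, which Cxcl9 does not reach, and 1, Ccl6, after quantile normalization. After rescaling to the same total they were Ccl6 and Ccl25, without Cxcl9.

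In tumors, rescaling to the same total and rescaling without the 50 highest genes turned the ligand median to −0.030 and −0.031, Cxcl2 to −0.10 in both, and Cx3cr1 to −0.013 and −0.015, and each left 3 members with an unadjusted p under 0.05. Quantile normalization turned Cxcl2 to −0.059. Without a filter the receptor median was 0.068. In male mice only it was 0.24, Cxcl1 was 0.017 and Ccr1 was 0.30. Without trend, limma gave 1 gene with an adjusted p under 0.05. The unadjusted p under 0.05 was lost for Cxcl12 and Cxcr2 without a filter, for Ccl6 and Cxcl14 after quantile normalization, for Cxcl12 and Cxcl14 without trend, for Cxcl12 with a pseudocount of 1, for Cxcl14 with sex as a covariate, and for Cxcr2, Cxcl12 and Cxcl14 in male mice only. It was gained by Ccl20 with sex as a covariate, and by Ccl11 and Ccl20 in male mice only.

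With the replicate block, 1 crypt member, Ccl6, and 3 tumor members, Ccr7, Cxcl5 and Cxcr4, had an unadjusted p under 0.05, so that Cxcl9 in crypts and Ccl6, Cxcl12, Cxcl14 and Cxcr2 in tumors did not. Libraries with the same number had correlations of deviations between −0.12 and 0.05, and not every library matched its own number best, so they were not treated as pairs.

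With 1 library left out in turn, adjusted calls were 0 to 3 in crypts and 0 to 0 in tumors, and members with an unadjusted p under 0.05 were 0 to 3 and 3 to 9. The ligand median ran from −0.16 to 0.062 in crypts and −0.085 to 0.17 in tumors, and the receptor median from −0.22 to 0.013 and −0.26 to 0.23. In crypts Ccl5 ran from −0.16 to 0.20, Cxcr4 from −0.63 to 0.14, Cxcr6 from −0.19 to 0.036, Cxcr3 from −0.15 to 0.12 and Cxcr5 from −0.23 to 0.16. In tumors Cxcl2 ran from −0.26 to 0.49, Cxcl1 from −0.59 to 0.48, Cxcl3 from −0.025 to 0.38, Ccr1 from −0.36 to 0.23 and Cx3cr1 from −0.22 to 0.42. Other members kept their sign but moved by over 1.5 times. In crypts these were Ccl25 (0.20 to 0.47), Ccl9 (−0.63 to −0.28), Cx3cl1 (−0.23 to −0.013), Ccl28 (0.023 to 0.40) and Cxcl10 (−0.43 to −0.012). In tumors they were Cxcl14 (0.31 to 0.67), Ccl6 (0.42 to 0.94), Cx3cl1 (0.15 to 0.33), Cxcl16 (0.025 to 0.17), Ccl28 (0.020 to 0.33), Cxcl12 (0.31 to 0.68), Cxcl9 (−1.34 to −0.29), Cxcl10 (−0.93 to −0.40), Ccl25 (−0.50 to −0.21), Cxcr2 (−0.53 to −0.25) and Ccr10 (0.15 to 0.91).

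Depth limits members of few fragments, such as the 55 of the tested Ccl21a copy. With 3 mice per group the exact permutation p cannot fall below 0.1.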
